A study of Mus musculus with 9 samples.

Results

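The genes described here are 35 fibroblast and matrix glycoprotein genes, chosen by name as surface and secreted markers of fibroblasts and as non-collagen components of the extracellular matrix. Of these, 34 had at least 1 probe under their listed name on the mouse array, with 54 probes in all among 27962 genes or transcripts. The 33 members with a tested probe, out of 20002 genes or transcripts tested, carry the counts below, each through its brightest tested probe. The members were measured in cells of primary BL6 mouse prostate, sorted by FACS (fluorescence-activated cell sorting). The marker-positive group, labelled stem cells, comprised 3 arrays of lineage-negative cells that carried all of CD44, CD133, Sca-1 and CD117. The marker-negative group was lineage-negative as well, lacked all 4 of those surface proteins, and comprised 6 arrays. Age, treatment and the number of animals behind an array were not given in the sources used here, and no label says that arrays came from separate animals, so p-values here speak to variation among arrays, part or all of which could be technical. Every array compared amplified sample RNA (Cy5) with the same pooled mouse reference RNA (Cy3), so each value below is a log2 ratio to that reference.

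Fibroblasts build the stroma that surrounds prostate ducts. They secrete proteoglycans and glycoproteins that space collagen fibrils, assemble fibrillin microfibrils and elastic fibres, and bind cells to the matrix, while lysyl oxidases cross-link collagen and elastin. Genes such as Pdgfra, a receptor for platelet-derived growth factor, and Pi16, a marker of adventitial fibroblasts around vessels, are used to recognise these cells. In bulk RNA of sorted cells, fewer cells of a type and less RNA per cell cannot be told apart, and this holds for every difference given here.

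The sort was checked first on the genes of its surface markers. Ly6a, which encodes Sca-1, was higher in the marker-positive arrays by 3.93 on the log2 scale (limma adjusted p = 0.0132). The CD117 gene, Kit, had a log2 difference of 3.45 (limma adjusted p = 0.046), and Cd44 by 2.06 (limma adjusted p = 0.0166). Prom1, which encodes CD133, had a log2 difference of -0.44 (limma adjusted p = 0.765). Marker-positive replicates 1 and 2 had Cy5 signal well above background for 67.3% and 69.3% of probes, replicate 3 for 45.5%, and the marker-negative arrays for 47.5% to 69.5%. Marker-positive replicate 3 also stood apart on the members. Over the 33 members its log2 ratios correlated at 0.56 and 0.58 with replicates 1 and 2, against 0.99 between those replicates and 0.94 with marker-negative replicate 6. Marker-negative replicate 6 itself correlated at 0.45 and 0.49 with marker-positive replicates 1 and 2. The gap was not confined to the members. Over all genes tested marker-positive replicate 3 correlated at 0.61 and 0.58 with replicates 1 and 2, against 0.93 between those and 0.71 with marker-negative replicate 6. These correlations are across genes, which are not independent, and the arrays share a reference. Results that rest on that array are therefore given with and without it. The array was singled out partly on these member values, and leaving it out keeps only marker-positive replicates 1 and 2. Adjusted p-values and counts without it do not allow for that choice. Without it the log2 difference was 4.64 for Ly6a (limma adjusted p = 0.00546), 2.07 for Cd44 (limma adjusted p = 0.026) and 0.38 for Prom1 (limma adjusted p = 0.708), while Kit at 2.59 was no longer called (limma adjusted p = 0.0763).

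Most matrix genes had higher log2 ratios in the marker-positive arrays, and the rise was carried by marker-positive replicates 1 and 2. Mfap4, a glycoprotein of microfibrils, and Fbln2, a fibulin of basement membranes and elastic fibres, rose at an adjusted p under 0.05, by 1.96 and 2.30 on the log2 scale. The other 31 members did not pass the test with all 9 arrays. None was called lower. Without marker-positive replicate 3, 20 members were called higher, against 4.70% of genes, and none lower, against 2.49%. Negative differences were found for Tnc, which encodes tenascin-C, and, with all 9 arrays, for Pcolce.

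Across the 33 tested members 2 were called higher, against 1.57% of all genes tested, and 0 were called lower, against 1.68%. At an unadjusted p under 0.05 limma placed 16 members higher, against 9.73% of genes, and 0 lower. The log2 difference of marker-positive minus marker-negative was positive for 31 members and negative for 2, while 48.9% of all genes had a positive difference. It exceeded 2-fold for 23 members, against 10.2% of genes. The median difference was 1.87 over the members and -0.012 over all genes. With slide as a fixed block that median was 2.82, and it was 2.49 within slide 1 and 3.38 within slide 2, the only slides that carried both groups. Marker-positive replicate 3 lay alone on its slide and enters none of these within-slide values. The difference was positive for 32 members within each of those slides, with Tnc as the exception both times.

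**Figure D1:**
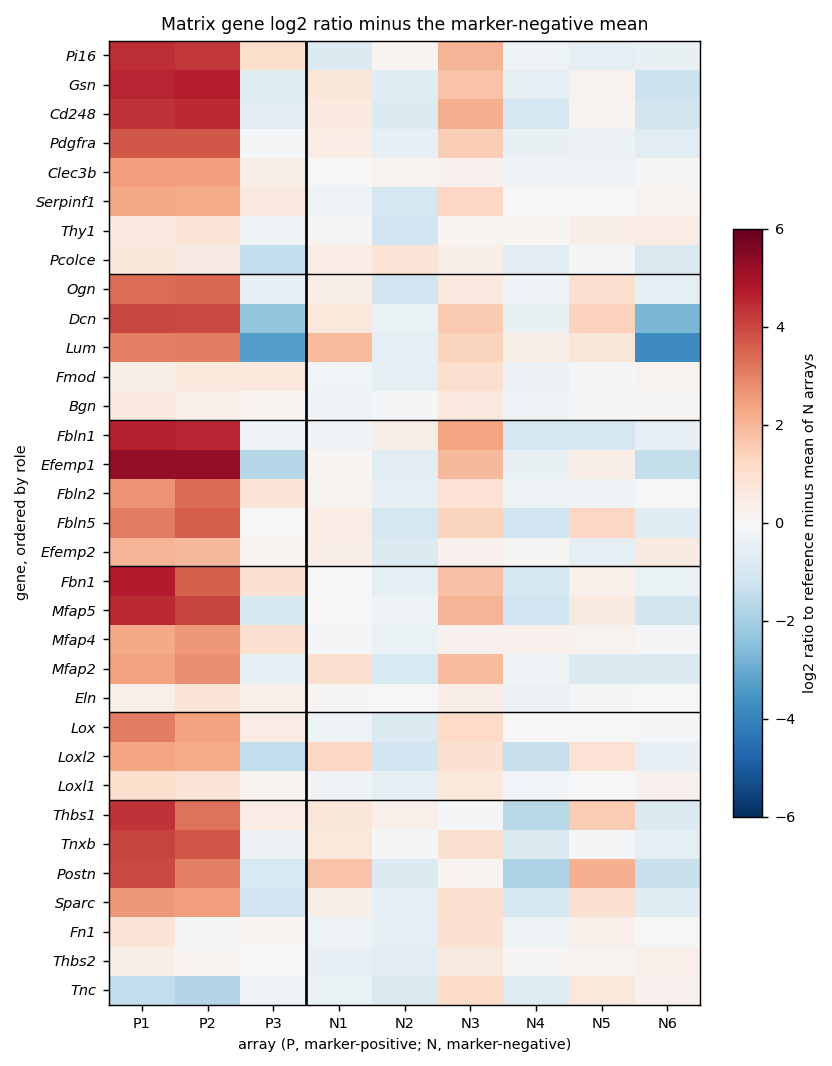
Log2 ratio of each of the 33 tested members on each of the 9 arrays, after subtraction of the mean of the 6 marker-negative arrays (red above, blue below), with genes grouped by role and ordered by difference within a role. Columns P1 and P2 are red for most genes, while P3 resembles the marker-negative columns and N3 is the reddest of those.

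On the arrays themselves, marker-positive replicates 1 and 2 both lay above every marker-negative array for 26 members, against 13.6% of genes. The 7 members for which they did not were Tnc, Pcolce, Eln, Fmod, Bgn, Fn1 and Thbs2. Both lay below every marker-negative array for 1 member, Tnc, against 18.0% of genes. Replicate 1 or 2 held the highest of the 9 values for 27 members, against 20.8% of genes. The values of replicates 1 and 2 were within log2 0.5 of each other for 25 members, a share close to the 74.6% of all genes.

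Marker-positive replicate 3 lay inside the marker-negative range for 27 members, against 53.5% of genes. It was above that range for Mfap4 and Clec3b and below it for Efemp1, Sparc, Loxl2 and Pcolce. These 4 members were the ones for which replicate 3 was lowest of all 9 arrays, against 15.7% of genes. The log2 ratio of replicate 1 exceeded that of replicate 3 by a median of 3.04 over the members and of -0.13 over all genes. Only Mfap4 and Clec3b therefore had groups that did not overlap, against 5.13% of genes with all marker-positive arrays above. No member had all of them below, against 6.47% of genes.

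Detection also differed between arrays. The brightest probe was well above background for 33 of 33 members on marker-positive replicates 1 and 2, for 24 on replicate 3, and for 28 to 33 on the marker-negative arrays. The members not well above background on marker-positive replicate 3 were Fbn1, Pdgfra, Efemp1, Lum, Lox, Tnxb, Mfap5, Postn and Tnc. Log2 ratios of these members on that array therefore come from signal not well above background. Fbn1, Thbs1, Tnxb, Mfap5 and Postn were well above background on only 4 of the 6 marker-negative arrays. Among the 23 members that were well above background on all 9 arrays, replicate 3 lay inside the marker-negative range for 18, and replicates 1 and 2 lay above it for 17. The median log2 difference of these 23 was 1.55.

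Leaving out marker-positive replicate 3 raised the count of members called higher from 2 to 20, against 4.70% of genes, and the median log2 difference to 2.75, with -0.08 over all genes. No member was called lower, against 2.49% of genes, although Tnc still had a log2 difference of -1.62 (limma adjusted p = 0.125). Pcolce changed sign to 0.58 (limma adjusted p = 0.449). Without marker-positive replicate 1 the count of members called higher was 0, against 0.510% of genes, and without replicate 2 it was 0, against 0.580% of genes.

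**Figure D2:**
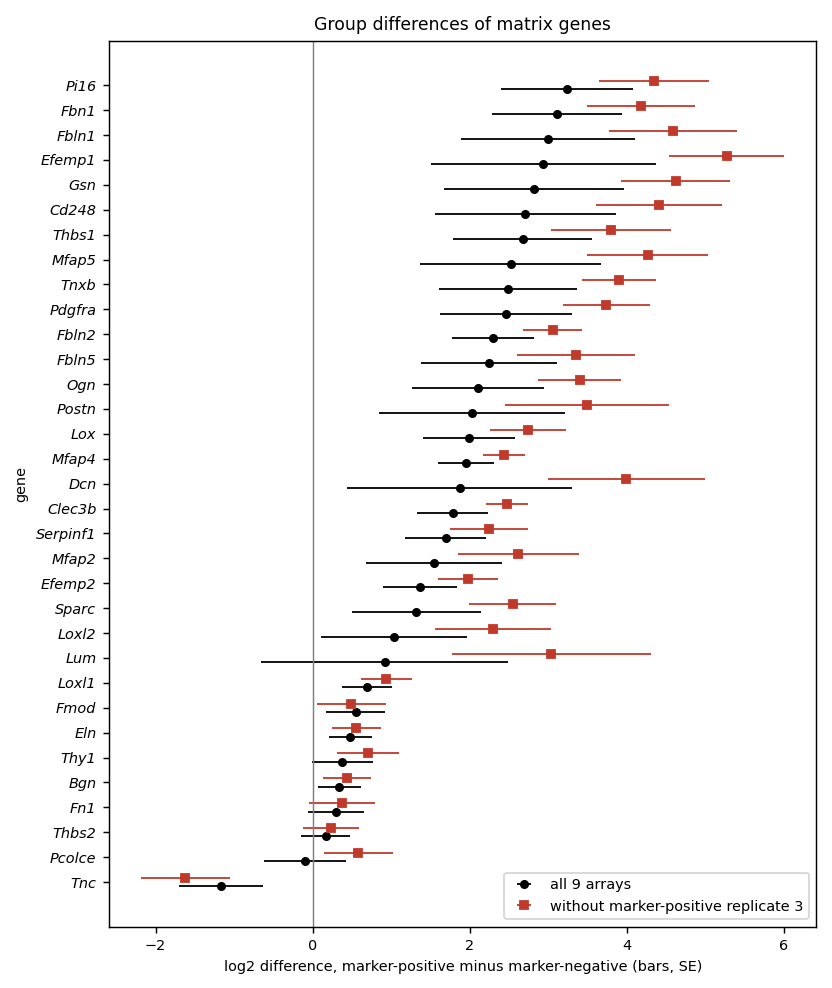
Log2 difference of marker-positive minus marker-negative arrays for each tested member, with all 9 arrays (black circles) and without marker-positive replicate 3 (red squares). Bars are the moderated standard error. The red squares lie to the right of the black circles for all genes except Tnc and Fmod.

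The promoters of 3 members are shown because they belong to a called gene (Fbln2), to the member with the largest difference (Pi16) and to the member with the most negative one (Tnc). Each is 300 bases around the annotated start, written 5′ to 3′ on the gene's strand, from RefSeq for build GRCm38.p6, at chr6:91212514-91212813 (plus strand) for Fbln2, chr17:29318632-29318931 (plus strand) for Pi16 and chr4:64046966-64047265 (minus strand) for Tnc. Capitals mark matches on either strand to 4 motifs that were searched, namely TATAAA (the TATA box), CCAAT (the CCAAT box), GGGCGG (the GC box) and TGANTCA (the AP-1 site), none of which overlapped another here.
Fbln2: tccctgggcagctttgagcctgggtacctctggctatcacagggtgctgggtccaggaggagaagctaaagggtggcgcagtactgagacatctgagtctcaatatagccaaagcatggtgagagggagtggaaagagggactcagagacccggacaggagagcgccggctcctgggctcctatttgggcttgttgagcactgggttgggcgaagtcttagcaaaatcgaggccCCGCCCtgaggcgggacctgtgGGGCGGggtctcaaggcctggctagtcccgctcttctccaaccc
Pi16: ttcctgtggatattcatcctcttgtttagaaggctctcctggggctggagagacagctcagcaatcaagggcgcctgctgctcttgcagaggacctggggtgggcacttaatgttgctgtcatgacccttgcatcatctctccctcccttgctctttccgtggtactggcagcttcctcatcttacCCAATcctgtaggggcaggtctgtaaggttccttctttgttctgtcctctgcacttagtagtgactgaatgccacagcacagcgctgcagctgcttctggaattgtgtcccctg
Tnc: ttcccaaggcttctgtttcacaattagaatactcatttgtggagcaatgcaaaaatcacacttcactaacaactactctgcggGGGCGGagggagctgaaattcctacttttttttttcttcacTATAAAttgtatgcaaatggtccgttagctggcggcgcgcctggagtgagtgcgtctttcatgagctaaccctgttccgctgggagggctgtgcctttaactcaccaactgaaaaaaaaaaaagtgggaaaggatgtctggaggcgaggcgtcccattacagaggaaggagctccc
The Fbln2 window held GGGCGG on both strands, the Pi16 window held CCAAT, and the Tnc window held GGGCGG and TATAAA. Of the 35 members, 22 had a promoter in the RefSeq table of 27025 genes. TATAAA occurred in 22.7% of the 22 and in 15.7% of all genes with a promoter of this length, CCAAT in 40.9% and 41.1%, TGANTCA in 9.09% and 8.97%, and GGGCGG in 54.5% and 38.2%. A match describes the letters of the window and is not a binding site.

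Fibroblast surface and adventitial genes had a median log2 difference of 2.12 over 8 tested members. None of the 8 was called with all arrays, and 6 were called higher without marker-positive replicate 3. Pi16, a peptidase inhibitor of adventitial fibroblasts (probe at chr17:27520752-27520811, mm7), had log2 ratios of 4.49, 4.28 and 1.09 on marker-positive replicates 1, 2 and 3. On the 6 marker-negative arrays it ran from -0.78 to 2.09 with a median of -0.34. Replicates 1 and 2 were thus the highest arrays, while replicate 3 lay below marker-negative replicate 3. The log2 difference was 3.24 with an SE of 0.84 (limma adjusted p = 0.0694), and 4.34 without marker-positive replicate 3 (limma adjusted p = 0.0104).

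Clec3b encodes tetranectin, a plasminogen-binding lectin (probe at chr9:122862600-122862659, mm7). Its log2 ratios were 3.55, 3.53 and 1.46 on the marker-positive arrays and 0.76 to 1.35, median 1.11, on the marker-negative arrays. All 3 marker-positive arrays lay above all 6 others, replicate 3 by a small margin. The difference came to 1.78 with an SE of 0.45 (limma adjusted p = 0.0637). With slide as a fixed block it was 2.49 (limma adjusted p = 0.0473), and it was the only member called in that fit, against 0.645% of genes called higher.

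Pdgfra was measured by a pair of probes that differed in sign. The brighter, nearer the 3′ end, had log2 ratios of 0.22, 0.20 and -3.62 on the marker-positive arrays and -4.21 to -2.04, median -3.91, on the marker-negative arrays. Marker-positive replicates 1 and 2 stood clear of all others, while replicate 3 lay within the marker-negative range. On the log2 scale the difference was 2.46 with an SE of 0.84 (limma adjusted p = 0.147), and 3.74 without replicate 3 (limma adjusted p = 0.00803). The dimmer probe, 34275 bases away on the genome, gave a log2 difference of -0.011 (limma adjusted p = 0.992).

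Pcolce, which enhances the removal of the C-terminal propeptide from procollagen, had a negative difference. Log2 ratios were -2.01, -2.20 and -4.15 on the marker-positive arrays and -3.56 to -1.87, median -2.55, on the marker-negative arrays. Replicate 3 was the lowest of the 9 arrays, and replicates 1 and 2 lay inside the marker-negative range. This gave a log2 difference of -0.098 with an SE of 0.53 (limma adjusted p = 0.948), and its sign turned within slides 1 and 2, when replicate 3 was left out and under centring on the array median, among other alternatives.

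The remaining genes of this role had positive differences that did not pass the test with all arrays. The log2 difference was 2.82 for Gsn, an actin-severing protein with a secreted form, 2.71 for Cd248, a surface glycoprotein of stromal cells and pericytes, 1.69 for Serpinf1, a secreted serpin, and 0.38 for Thy1, a GPI-anchored surface protein. Of these, Thy1 was the one not called higher without marker-positive replicate 3 (limma adjusted p = 0.318). Dpt, a collagen-binding matrix protein, was not tested, because its probe was well above background on marker-positive replicates 1 and 2 only. Its log2 ratios were 2.19, 1.14 and -0.59 on the marker-positive arrays and -1.44 to -0.10 on the marker-negative arrays. Since no marker-negative array measured it above background, the difference is a bound. Mean Dpt signal of the marker-positive arrays was at least 3.76-fold higher, set against the higher of its own signal and the detection floor on each marker-negative array, with no balanced dye swap to remove dye bias. That bound is for the group mean and not for each array, since the log2 ratio of replicate 3 lay inside the marker-negative range.

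Small leucine-rich proteoglycans, which bind collagen fibrils and regulate their thickness, had a median log2 difference of 0.92 over 5 tested members. None of them was called with all arrays, and Dcn and Ogn were called higher without marker-positive replicate 3. Ogn (osteoglycin) had log2 ratios of -0.17, -0.10 and -4.02 on the marker-positive arrays and -4.68 to -2.54, median -3.47, on the marker-negative arrays. Replicates 1 and 2 exceeded every marker-negative array, and replicate 3 lay among the lower ones. The difference came to 2.11 with an SE of 0.84 (limma adjusted p = 0.207), and 3.40 without replicate 3 (limma adjusted p = 0.00922).

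Fmod (fibromodulin) showed no such separation. Log2 ratios were -0.55, -0.29 and -0.27 on the marker-positive arrays and -1.51 to 0.10, median -1.04, on the marker-negative arrays. The groups overlapped through marker-negative replicate 3, the highest array, and here marker-positive replicate 3 matched its own group. On the log2 scale the difference was 0.55 with an SE of 0.37 (limma adjusted p = 0.466).

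Dcn (decorin) and Lum (lumican) are neighbours on chromosome 10 in the RefSeq gene order. Dcn had log2 ratios of 3.50, 3.44 and -2.89 on the marker-positive arrays and a difference of 1.87 (limma adjusted p = 0.523). Lum had log2 ratios of 5.49, 5.52 and -0.86 on the same arrays and a difference of 0.92 (limma adjusted p = 0.809). Both were lower on marker-positive replicate 3 than on any marker-negative array but replicate 6, where Dcn was at -3.28 and Lum at -1.30. Without marker-positive replicate 3 the difference of Dcn was 3.99 (limma adjusted p = 0.0491) and that of Lum 3.04 (limma adjusted p = 0.188). The difference of Lum changed sign to -0.14 and -0.15 when marker-positive replicate 1 or 2 was left out. Bgn (biglycan) had a log2 difference of 0.34 (limma adjusted p = 0.546).

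**Figure D3:**
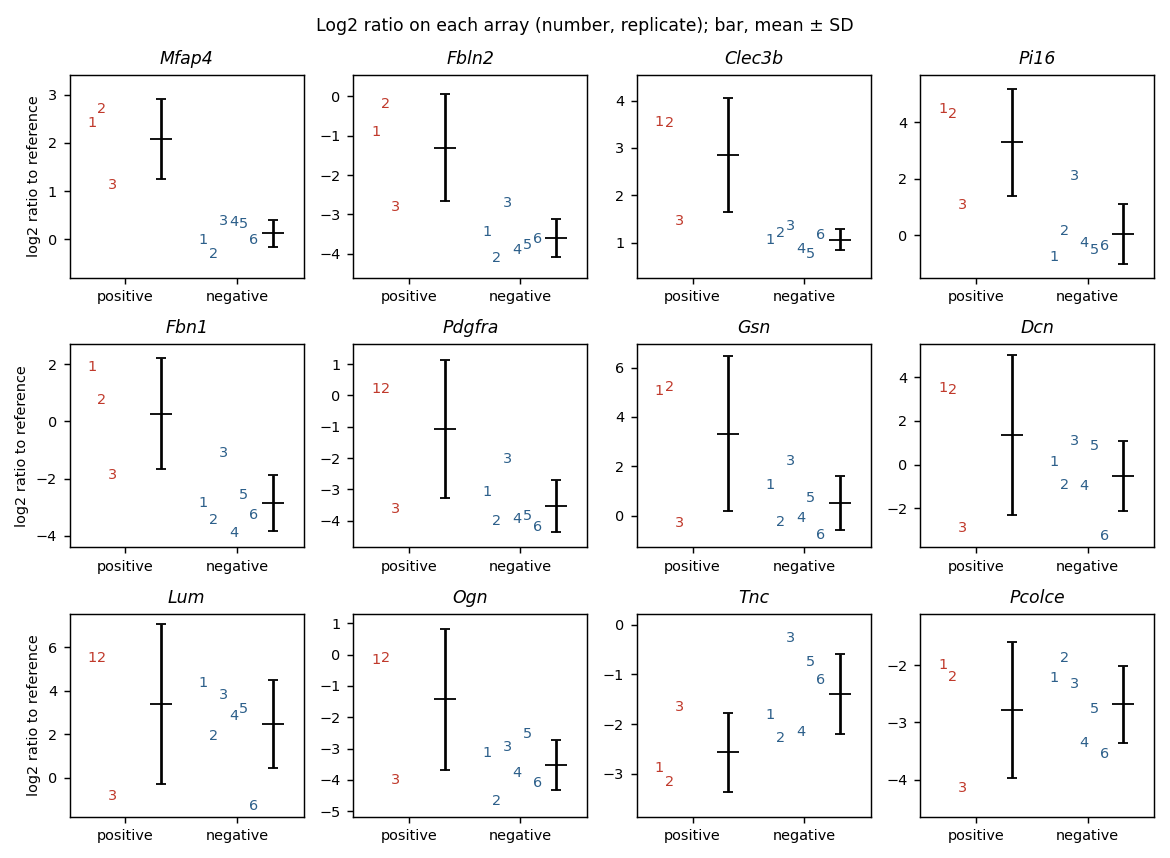
Log2 ratio to the reference on each array for 12 members, with the replicate number as the plotting symbol (red, 3 marker-positive arrays; blue, 6 marker-negative arrays) and the group mean ± SD as a bar beside it. The vertical scale differs between panels. Marker-positive replicate 3 falls away from replicates 1 and 2 in most panels, and for Mfap4 all 3 marker-positive arrays lie above the others.

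Fibulins, calcium-binding glycoproteins that link elastic fibres and basement membranes to other matrix proteins, had a median log2 difference of 2.30. Fbln2 was called with all arrays, and all 5 were called higher without marker-positive replicate 3, against 4.70% of genes. For each of the 5, replicates 1 and 2 lay above every marker-negative array, against 13.6% of genes. Fbln2 (probe at chr6:91354450-91354509, mm7) had log2 ratios of -0.90, -0.19 and -2.82 on the marker-positive arrays and -4.11 to -2.72, median -3.71, on the marker-negative arrays. Marker-positive replicate 3 was just under marker-negative replicate 3, so the groups overlapped by that single pair of arrays. The means were -1.30 ± 1.36 (SD, n = 3) and -3.60 ± 0.49 (SD, n = 6). The difference of 2.30, or 4.91-fold, had an SE of 0.53 (limma adjusted p = 0.0473). It was 3.27 with slide as a fixed block (limma adjusted p = 0.0581), 2.54 within slide 1 and 3.82 within slide 2. The call was lost without marker-positive replicate 1 (2.09, limma adjusted p = 0.186) or 2 (1.74, limma adjusted p = 0.179), and without marker-negative replicate 1, 2, 4, 5 or 6 (limma adjusted p = 0.0693 to 0.0901).

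Efemp2, a fibulin that brings lysyl oxidase to elastin, had log2 ratios of -1.75, -1.86 and -3.64 on the marker-positive arrays and -4.60 to -3.22, median -3.61, on the marker-negative arrays. Replicates 1 and 2 were above all the others, while replicate 3 lay near the marker-negative median. This gave a log2 difference of 1.37 with an SE of 0.47 (limma adjusted p = 0.147). Efemp1 showed the widest gap inside the marker-positive group among the fibulins, with log2 ratios of 1.47, 1.46 and -5.53. Its probe was not well above background on replicate 3. Its log2 difference was 2.94 with all arrays (limma adjusted p = 0.293) and 5.27 without replicate 3 (limma adjusted p = 0.00654). Fbln1 and Fbln5, the latter required for elastic fibre assembly in mice, had log2 differences of 2.997 and 2.25.

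Elastic fibre and microfibril genes had a median log2 difference of 1.96 over 5 members. Mfap4 was called with all arrays, and Mfap4, Fbn1 and Mfap5 were called higher without marker-positive replicate 3. Mfap4, which binds collagen and elastin (probe at chr11:61570152-61570211, mm7), had log2 ratios of 2.41, 2.70 and 1.13 on the marker-positive arrays and -0.30 to 0.38, median 0.15, on the marker-negative arrays. The groups did not overlap. The means were 2.08 ± 0.84 (SD, n = 3) and 0.12 ± 0.27 (SD, n = 6). The difference of 1.96, or 3.88-fold, had an SE of 0.35 (limma adjusted p = 0.0198). It was 2.56 with slide as a fixed block (limma adjusted p = 0.0521), 2.42 within slide 1 and 2.67 within slide 2. The call was lost without marker-positive replicate 1 (1.79, limma adjusted p = 0.0928) or 2 (1.64, limma adjusted p = 0.082), and under median centring (1.72, limma adjusted p = 0.131).

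Fbn1 encodes fibrillin-1, the scaffold of microfibrils. Its log2 ratios were 1.90, 0.75 and -1.88 on the marker-positive arrays and -3.90 to -1.10, median -3.06, on the marker-negative arrays. Replicates 1 and 2 were the highest, and replicate 3 exceeded 5 of the 6 marker-negative arrays. That rank is uncertain, because the probe was well above background on 4 marker-negative arrays and not on replicate 3. The log2 difference was 3.11 with an SE of 0.82 (limma adjusted p = 0.0747), and 4.18 without replicate 3 (limma adjusted p = 0.0117). Mfap5 and Mfap2, which both bind fibrillin microfibrils, had log2 differences of 2.52 (limma adjusted p = 0.264) and 1.55 (limma adjusted p = 0.37). Eln, which encodes tropoelastin, differed by 0.48 (limma adjusted p = 0.379), and replicates 1, 2 and 3 had log2 ratios of 0.75, 1.30 and 0.79 against at most 0.88 on a marker-negative array.

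Lysyl oxidases had a median log2 difference of 1.04 over 3 members. None was called with all arrays, and Lox was called higher without marker-positive replicate 3. Lox had log2 ratios of -1.33, -1.95 and -3.92 on the marker-positive arrays and -5.26 to -3.21, median -4.41, on the marker-negative arrays. Its replicates 1 and 2 lay above all the others. The difference came to 1.99 with an SE of 0.59 (limma adjusted p = 0.1), and 2.75 without replicate 3 (limma adjusted p = 0.0144).

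Loxl1, which acts on elastin, had log2 ratios of -2.18, -2.40 and -3.03 on the marker-positive arrays and -3.76 to -2.62, median -3.30, on the marker-negative arrays. Again replicates 1 and 2 were the highest, but the distance was small. On the log2 scale the difference was 0.69 with an SE of 0.32 (limma adjusted p = 0.263). That of Loxl2 was 1.04 with an SE of 0.93 (limma adjusted p = 0.596). Another Loxl2 probe, well above background on only 1 array, was not tested. Its log2 ratios were -1.99, -2.69 and -0.92 on the marker-positive arrays and -2.82 to -0.89 on the marker-negative arrays.

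Adhesive and matricellular glycoproteins had the widest spread of log2 differences among the roles, from -1.17 to 2.68, with a median of 1.32 over 7 tested members. None was called with all arrays, and Thbs1, Tnxb and Sparc were called higher without marker-positive replicate 3. Thbs1 encodes thrombospondin-1, which binds cells and activates latent transforming growth factor beta. Log2 ratios were 2.35, 1.30 and -1.54 on the marker-positive arrays and -3.65 to -0.45, median -1.87, on the marker-negative arrays. Replicate 3 lay inside the marker-negative range. This gave a log2 difference of 2.68 with an SE of 0.89 (limma adjusted p = 0.136), and 3.80 without replicate 3 (limma adjusted p = 0.0235).

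Tnxb encodes tenascin-X, which binds collagen fibrils. Its brighter probe had log2 ratios of 3.84, 3.58 and -0.54 on the marker-positive arrays and -1.07 to 0.70, median -0.27, on the marker-negative arrays. The first 2 marker-positive replicates were far above the rest, and replicate 3 was not. That probe was well above background on 2 marker-positive and 4 marker-negative arrays, so its low values are uncertain. The log2 difference was 2.49 with an SE of 0.88 (limma adjusted p = 0.156), and 3.90 without replicate 3 (limma adjusted p = 0.00361). The dimmer probe, 7402 bases away, gave a log2 difference of -0.17 (limma adjusted p = 0.575).

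Tnc encodes tenascin-C, a glycoprotein of remodelling and developing stroma. Its log2 ratios were -2.88, -3.15 and -1.66 on the marker-positive arrays and -2.28 to -0.28, median -1.47, on the marker-negative arrays. Replicates 1 and 2 were the lowest of the 9 arrays, and marker-negative replicate 3 was the highest. The difference came to -1.17 with an SE of 0.53 (limma adjusted p = 0.264). A second probe, above background on 3 of the 9 arrays, gave 0.06 (limma adjusted p = 0.965).

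Fn1, which encodes fibronectin, was read by 3 probes with log2 differences of 0.29, -0.32 and 0.09 (limma adjusted p = 0.71, 0.693 and 0.946). On the brightest, the log2 ratios were -2.49, -3.41 and -3.19 on the marker-positive arrays and -3.93 to -2.42, median -3.46, on the marker-negative arrays, so all 3 marker-positive arrays lay inside the marker-negative range. Postn (periostin) had a log2 difference of 2.03 (limma adjusted p = 0.389), Sparc, a collagen-binding matricellular protein, 1.32 (limma adjusted p = 0.42), and Thbs2 0.17 (limma adjusted p = 0.829). Vcan, the large proteoglycan versican, was not listed under that symbol. Its earlier symbol Cspg2 had a log2 difference of 1.45 with an SE of 0.56 (limma adjusted p = 0.189) and stays outside the counts.

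Of the 10 members with more than 1 tested probe, 6 had probes of the same sign and 4 did not (Fn1, Pdgfra, Tnc and Tnxb). The probe nearest the 3′ end of the gene had the largest absolute difference for 9 of the 10, with Fn1 as the exception, and was also the brightest for 9 of the 10, with Sparc as the exception. Serpinf1 gave 1.69 at its 3′ probe and 0.0083 at the other on the log2 scale. RNA was amplified before labelling, and the part of probe position in these gaps was not tested.

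**Figure D4:**
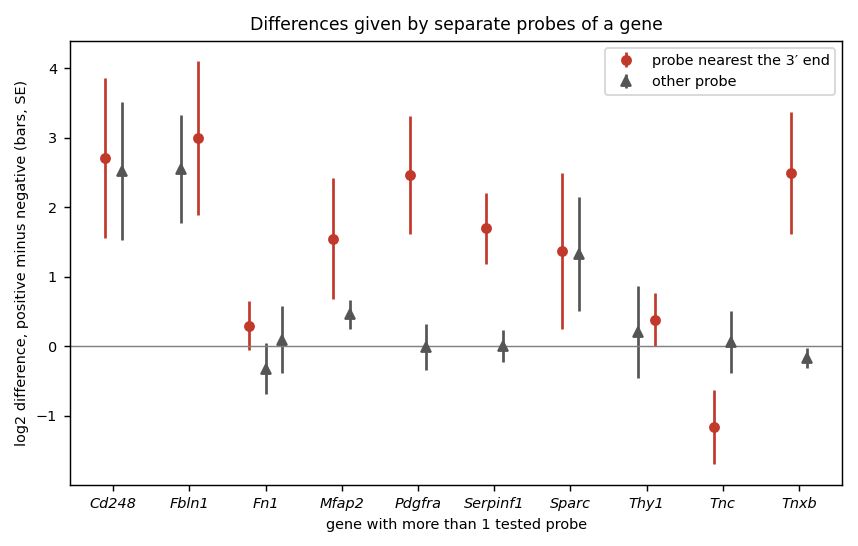
Log2 difference of marker-positive minus marker-negative arrays for each tested probe of the 10 members with more than 1 tested probe (red circles, probe nearest the 3′ end; grey triangles, other probes; bars, SE). Pdgfra, Serpinf1 and Tnxb have their 3′ probe at 2.46, 1.69 and 2.49, none of which passed the test, and the other probe at -0.011, 0.0083 and -0.17.

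Related matrix genes outside the member list were read from lists chosen by function. Of 11 tested collagen genes 0 were called by limma, 11 had a positive difference, and the median log2 difference was 1.26. Col6a1 (1.54, limma adjusted p = 0.134) and Col5a2 (2.17, limma adjusted p = 0.232) had the smallest p-values among them. Without marker-positive replicate 3, 4 of the 11 were called higher, against 4.70% of genes. Of 12 genes of collagen processing 0 were called, with a median of 0.47. Pcolce2, which enhances procollagen processing as Pcolce does, had a log2 difference of 3.21 (limma adjusted p = 0.0612) but was well above background on only 2 marker-positive and 2 marker-negative arrays. Adamts2, a procollagen N-proteinase, had a log2 difference of 1.89 (limma adjusted p = 0.141).

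Of 17 further matrix assembly genes 3 were called higher, against 1.57% of genes, and 0 lower, against 1.68%. The median log2 difference was 1.08. Emilin2, an elastin-microfibril interface glycoprotein, had log2 ratios of 3.24, 2.09 and 1.46 on the marker-positive arrays and -2.15 to -1.34 on the marker-negative arrays. Its difference of 3.88 (limma adjusted p = 0.00115) included a high value on marker-positive replicate 3, unlike most members. Aspn (1.56, limma adjusted p = 0.0431) and Omd (1.22, limma adjusted p = 0.0274) encode leucine-rich proteoglycans. In the RefSeq gene order on chromosome 13, Omd is next to Ogn and Aspn is 2 genes from it. Omd was well above background on 2 marker-positive arrays and 1 marker-negative array, and Aspn on 2 and 2. Of 7 fibroblast transcription factors 0 were called, with a median of 0.53. Twist2 had a log2 difference of 2.65 (limma adjusted p = 0.1) and Twist1, above background on 2 arrays of each group, of 1.33 (limma adjusted p = 0.115).

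Marker lists of other cell types also differed between the arrays, and their part in the member results was not tested. The members averaged log2 ratios of 0.998, 0.88 and -1.95 on marker-positive replicates 1, 2 and 3 and -2.20 to -0.60 on the marker-negative arrays. Endothelial markers averaged 3.34, 4.79 and 1.04, against 0.33 to 1.93, so their mean too was above the marker-negative range on replicates 1 and 2 and inside it on replicate 3. Vwf, which encodes von Willebrand factor and was the 1 endothelial marker called with all arrays (3.99, limma adjusted p = 0.00843), differed from that mean, with log2 ratios of 3.52, 4.87 and 3.56 against at most 1.17 on the marker-negative arrays. Smooth muscle and pericyte markers averaged -0.07, 0.71 and -1.62, against -2.10 to 0.16.

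Macrophage markers averaged 4.97, 3.84 and 4.74 on the marker-positive arrays, against -0.29 to 2.40, so their mean was above the marker-negative range on all 3 of them. Mrc1, Cd163 and Lyz2 were the ones called higher. Cd68, Csf1r, Adgre1 and C1qa were not called, and each overlapped between the groups. Mast cell markers, which include Kit, averaged 4.78, 4.12 and 5.81, against 0.28 to 3.69, with the upper value on marker-negative replicate 3. Luminal and secretory markers averaged 3.28, 3.45 and 0.76, against 4.18 to 5.46, and lymphocyte markers 0.10, 0.09 and 1.54, against 2.71 to 4.55. By limma, 1 of 7 endothelial, 0 of 9 smooth muscle, 3 of 7 macrophage and 4 of 6 mast cell markers were called higher. The share over all genes was 1.57%. The test called 3 of 9 luminal and secretory markers and 4 of 7 lymphocyte markers lower, against 1.68% of genes. Without marker-positive replicate 3, 6 of 7 endothelial and 1 of 9 smooth muscle markers were called higher, against 4.70% of genes. So were 3 of 7 macrophage and 2 of 6 mast cell markers. In that fit 4 of 9 luminal and secretory and 5 of 7 lymphocyte markers were called lower, against 2.49% of genes. On marker-positive replicates 1 and 2 all 7 endothelial and all 9 smooth muscle markers were well above background, against 4 and 6 on replicate 3.

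Basal epithelial markers averaged 2.47, 2.76 and 0.40 on the marker-positive arrays, against 0.54 to 2.17. Of these 5 markers 1 was called higher, against 1.57% of genes. Mesothelial markers averaged -1.96, -1.12 and -2.20, against -3.78 to -2.01. Nerve and Schwann cell markers averaged 1.15, 0.88 and 0.78, against 0.57 to 2.39, and adipocyte markers 0.81, 0.73 and 1.89, against 0.59 to 1.74. None of the tested mesothelial, nerve or adipocyte markers was called by limma with all arrays. Of 3 mesothelial markers 1 was called higher without marker-positive replicate 3, against 4.70% of genes.

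**Figure D5:**
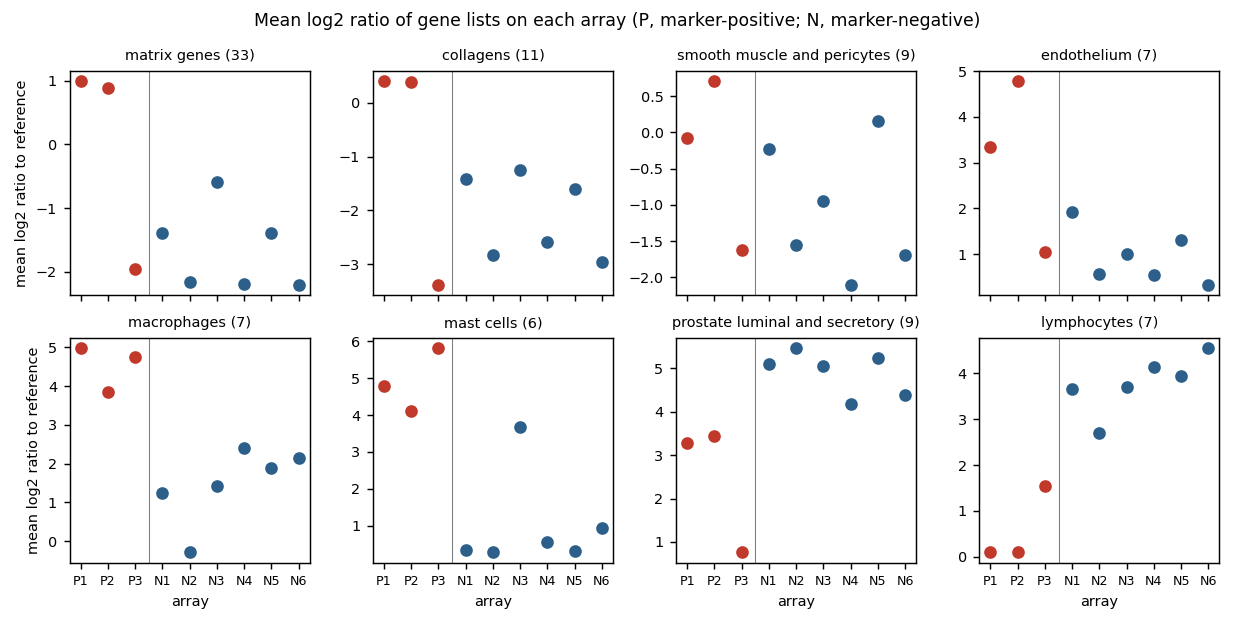
Mean log2 ratio on each array for the 33 members and for 7 lists of other genes, with the number of tested genes in brackets (red, 3 marker-positive arrays; blue, 6 marker-negative arrays; vertical scales differ). Means of the members, collagens and endothelial markers share high values on P1 and P2 and lower ones on P3, while the means of macrophage and mast cell markers are high on all 3 marker-positive arrays.

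Within the marker-negative group replicate 3 was highest for 25 of the 33 members, against 29.7% of genes. It was also the array with the lowest share of probes above background in that group, 47.5%, and the one with the highest mast cell mean. Its mean over the members was -0.60, against -2.20 to -1.38 on the other 5 marker-negative arrays.

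In the authors' deposited table, which fits a comparison of the same groups, 33 members were listed and 8 were higher in stem cells at an adjusted p under 0.05, with 0 lower. In the authors' deposited table these were Thbs1, Fbn1, Fbln2, Pdgfra, Pi16, Mfap4, Lox and Fbln5. The share of all 43379 deposited rows under that threshold was not counted. Whether 8 of 33 is many for that fit was therefore not assessed. The log2 value for Thbs1 in the authors' deposited table was 2.67 (adjusted p = 0.00529) and that for Fbn1 was 3.11 (adjusted p = 0.0156). The sign of all 33 members was the same in the authors' deposited table as in the present fit, once its log2 column was turned to stem minus non-stem by its own fold column.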

How the data were processed

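RNA of sorted mouse prostate cells was amplified with MessageAmp II and labelled with a Quick Amp kit, per the labels' protocols, and hybridised in Cy5 against a common Cy3 reference, with no dye swap. The deposited scanner files hold spot intensity values, for which the submitters' processing notes name Agilent Feature Extraction 10.7. For stem against non-stem cells the authors deposited a log2 difference, a p-value and a signed fold, treated as a score. How these were normalized is not stated in the labels or headers.

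Intensities were corrected with limma 3.58.1 (R 4.3.3) by normexp with an offset of 50 and normalized by loess within arrays, with control and outlier spots at weight 0. Outlier spots were dropped, and repeat spots averaged. A probe was tested when 3 or more arrays had it well above background in Cy5, which 28334 of 41174 probes met. The test was limma's moderated two-sided test with trend and robust variance. Adjusted p-values are Benjamini-Hochberg over all tested probes, at a threshold of 0.05. A gene is represented by its brightest tested probe, judged on the mean of both channels. The number of arrays limits the precision. Probe coordinates are those of build mm7 in the scanner files. Motifs were searched in RefSeq promoters of GRCm38.p6. The procedure was tested on simulated data with independent noise and no array or slide effect. That test does not cover an array that departs from its group, as marker-positive replicate 3 did. Plots used matplotlib 3.10.9.

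All 35 members are named. Values on each marker-positive array are given for called members, those with a negative difference and those whose probes differ in sign. They are also given for the 2 members with the smallest adjusted p of each role. For all of these the marker-negative arrays are given by range and median, and the values are those of the brightest probe. Dcn, Lum, Efemp1, Eln and Dpt were added after their values were seen. For context lists, called genes and the 2 with the smallest adjusted p are named. The members and lists were chosen with earlier results of these data known. Alternatives covered background correction, centring, filter, variance model, weights, slide and each array left out.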

Additional observations from a re-analysis of the deposited data

Results flagged for a closer look

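In 3 of the 33 tested members, 1 marker-negative array lay far from the other 5 by Dixon's test. Chance alone flags about 1 in 20 such groups. Pi16 had a log2 ratio of 2.09 on marker-negative replicate 3, against 0.16 on the next array. Bgn had -2.11 on the same replicate, against -2.66. Thy1 had -2.52 on marker-negative replicate 2, the lowest, against -1.30.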

How the results depend on the processing

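The member differences were refitted under 24 alternatives, which gave 783 comparisons with the reported values, since only 24 of the 33 members had a probe detected in both channels on all arrays. Of these 699 kept their direction and side of the threshold, 46 passed it newly, 15 no longer passed it, 13 values without a test moved by more than the replicate spread and 10 reversed. The count of members called higher was 2. It was 0 under median centring, 1 with no filter, 1 with slide as a fixed block and 1 with eBayes without trend and robust estimation. With the processed signals of the scanner files it was 3. It was 4 when probes had to be detected in both channels on all arrays, and 24 with array weights, against 11.2% of genes. Leaving out each array in turn gave 0 to 20. It was 1 without marker-negative replicate 1, 2, 4, 5 or 6, and 3 without marker-negative replicate 3. The array weights were 0.24 for marker-positive replicate 3 and 2.78 and 2.27 for marker-positive replicates 1 and 2. The weighted fit is therefore not separate from leaving marker-positive replicate 3 out. The count called lower was 0 in every other alternative and 1, Tnc, with array weights, against 11.4% of genes. The median difference within slide 2 was 3.38. When the tested probes of a gene were averaged it was 1.37, in place of 1.87 with the brightest probe. Mfap4 lost its call under median centring, with the fixed block, and without marker-positive replicate 1 or 2. Pcolce reversed to 0.089 under median centring, 0.33 with slide as a fixed block, 0.36 with array weights, 0.22 within slide 1, 0.42 within slide 2, 0.58 without marker-positive replicate 3 and 0.07 without marker-negative replicate 2, with a range of -0.49 to 0.58 over arrays left out. Pdgfra reversed to -0.011 with detection required in both channels, where its other probe stood for it. Lum reversed to -0.14 and -0.15 without marker-positive replicate 1 and 2. Its difference was 3.04 without marker-positive replicate 3 and highest, at 3.14, within slide 2. Fbln2 lost its call under median centring, with no filter, with the fixed block, with eBayes without trend and robust estimation, and without any single array except marker-positive replicate 3 and marker-negative replicate 3. Except for the Pdgfra probe, the cause was not tested. No paired analysis was possible because replicate numbers were given in accession order and carry no pairing. Arrays of both groups are matched only by slide, through the block and the within-slide values. No alternative separates group from slide for marker-positive replicate 3, which lay alone on its slide.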
